A study of Mus musculus with 6 samples.

Results

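Cluster 8 of the tumor endothelial cells (ECs) comprised 2847 of the 11433 ECs and of the 58794 annotated cells in orthotopic H22 liver tumors. Its members were the cells to which the deposited annotation gives the cell type endothelial cells and the cluster number 8, with 562, 599 and 457 cells in control mice 1, 2 and 3 and 285, 352 and 592 cells in stress mice 1, 2 and 3. H22 is a transplantable murine hepatocellular carcinoma (HCC) line, here grown in the liver of wild-type male C57BL/6J mice that were obtained at 8 weeks of age. The 3 stress mice underwent chronic unpredictable mild stress, by the study's account before the tumor cells were implanted, and the 3 control mice did not. Each mouse gave 1 single-cell RNA library on the 10x Genomics platform, in which unique molecular identifiers (UMIs) count captured RNA molecules, so that the mouse is the replicate throughout. The tumor cells came from the injected line and the ECs from the host, and which region of a tumor was sampled is not given in the sources used here.

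The ECs of the liver sinusoid line blood channels without a basement membrane, carry scavenger and lectin receptors that clear material from portal blood, and send growth signals such as Wnt ligands, bone morphogenetic proteins and hepatocyte growth factor to hepatocytes. When ECs are activated by inflammatory cytokines, NF-kB induces selectins, integrin ligands and chemokines that slow, arrest and guide leukocytes, and interferons induce guanosine triphosphatases and chemokines that draw T cells. The genes that mark cluster 8 are Selp, Vcam1, Iigp1, Bmp2, Adamts9 and Hgf.

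Control matrices were written by Cell Ranger 9.0.0 and stress matrices by 7.1.0, as their headers state, and the effects of software and of stress on counts cannot be told apart. Cluster 8 cells summed to between 1842685 and 4543314 UMIs per mouse. The median cell held 3955, 4802 and 5502 UMIs in control mice 1, 2 and 3 and 6320, 6115 and 7243 UMIs in stress mice 1, 2 and 3, so that the stress cells were deeper without overlap (two-sided exact permutation test, p = 0.10, the smallest that 3 mice against 3 allow, Benjamini-Hochberg adjusted over 5 measures 0.167). Libraries shared between 14 and 43 barcodes with each other. Scrublet, run here on each library, called 64 cluster 8 cells (2.25%) doublets, against 1.40% in cluster 2, 47.3% in cluster 16 and 89.1% in cluster 24. Control mouse 2 stood apart in cluster 8 in its heat shock genes, whose summed level was 6168 CPM (UMIs scaled to the same total in every sum) against 2613 and 3209 in the other control mice.

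The label of ECs held for cluster 8. All 14 pan-endothelial genes listed were present, and Cdh5 (VE-cadherin) had a UMI in 98.1% of its cells and Pecam1 in 95.6%, at a median of 5306 UMIs per cell. In monocytes, which lack these adherens junctions and had a median of 5291 UMIs, Cdh5 had a UMI in 3.56% of cells. Defining transcripts of other cells were low for some types and present for others. The 10 stellate cell and pericyte genes summed to between 4.88 and 18.7 CPM per mouse, the 8 T, NK and B cell genes to between 6.69 and 28.1 CPM and the 8 hepatocyte genes to between 12.3 and 49.4 CPM. The 10 macrophage and monocyte genes summed to between 371 and 868 CPM, against 6963 CPM in monocytes, and the 8 tumor genes to between 25.5 and 49.8 CPM, against 789 CPM in tumor cells. The 6 neutrophil genes summed to between 5.97 and 77.0 CPM, with a mean of 41.3 CPM. The 5 platelet and megakaryocyte genes summed to between 134 and 278 CPM. The 5 erythroid genes varied widely, from 2.58 CPM in control mouse 2 to 482 CPM in stress mouse 2. The Y-linked gene Uty lay between 103 and 130 CPM in cluster 8 of every mouse and at 0.544 CPM in tumor cells, whereas Xist lay between 66.0 and 253 CPM in cluster 8 and at 1697 CPM in tumor cells. Both genes were examined after their values were seen.

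Of the 7 endothelial clusters, cluster 8 had the highest mean level of all 6 marker genes. As the clusters were formed from the same expression values, the levels that set cluster 8 apart from other ECs are a description and carry no test. Selp (P-selectin, ENSMUSG00000026580, chr1:164115264-164150026 in GRCm38), which tethers rolling leukocytes, reached 3516, 2104 and 3348 CPM in control mice 1, 2 and 3 and 2649, 2017 and 1966 CPM in stress mice 1, 2 and 3. Its level in cluster 2, the largest endothelial cluster, lay between 307 and 720 CPM, so that the clusters did not overlap in any mouse. The log2 ratio of CPM + 1 between cluster 8 and all other ECs was 2.62 ± 0.51 (SD, n = 6 mice).

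Vcam1 (chr3:116109949-116129688), the ligand of the integrin alpha4 beta1 on monocytes and lymphocytes, reached 2075, 1880 and 2493 CPM in the control mice and 2362, 1692 and 1928 CPM in the stress mice. It lay between 347 and 595 CPM in cluster 2, and the log2 ratio to the other ECs was 2.53 ± 0.36 (SD, n = 6). Iigp1, an interferon-inducible guanosine triphosphatase, varied most between mice, with 763, 642 and 1864 CPM in control mice and 1501, 997 and 869 CPM in stress mice. Control mouse 3 was also the highest for Iigp1 in cluster 2, at 885 CPM against 255 to 383 CPM in the other mice, and the ratio between the clusters was above 1 in all 6 mice.

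Adamts9 (chr6:92772699-92943492), a secreted metalloprotease that cleaves proteoglycans, had 692, 522 and 875 CPM in control mice and 636, 775 and 301 CPM in stress mice, and its log2 ratio to the other ECs was 2.18 ± 0.46 (SD, n = 6). Bmp2 and Hgf were less restricted to cluster 8. Bmp2 (chr2:133552159-133562885), a ligand that induces hepcidin in hepatocytes, was at a mean of 1721 CPM in cluster 8 and 1129 CPM in cluster 2. Hgf (chr5:16553495-16620152), the hepatocyte growth factor, was at 1392 and 1037 CPM, and in control mouse 3 cluster 2 (968 CPM) exceeded cluster 8 (839 CPM). The separation was thus wide for Selp, Vcam1, Adamts9 and Iigp1 and narrow for Bmp2 and Hgf when cluster 2 was the comparator, with log2 ratios of 2.30, 2.14, 1.58, 1.44, 0.60 and 0.38.

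**Figure D1:**
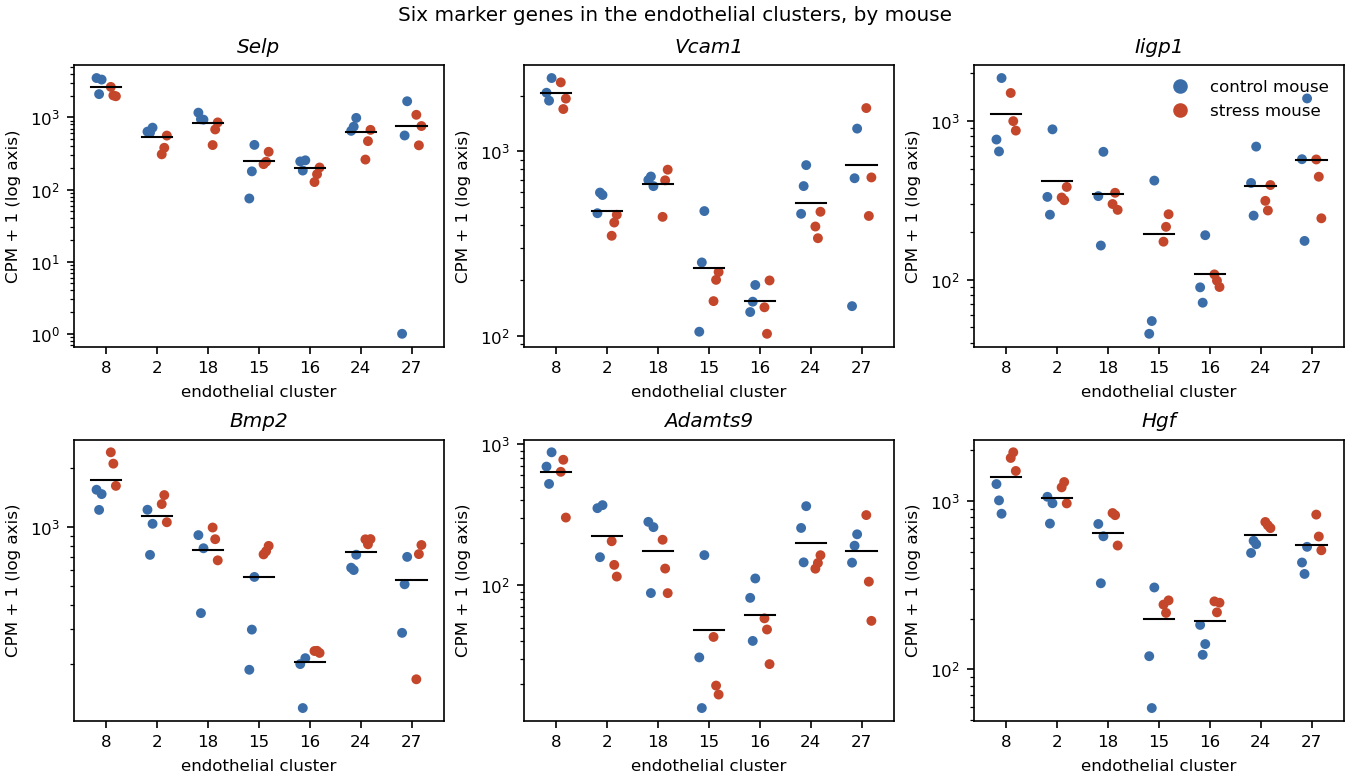
CPM + 1 on a log axis for the 6 marker genes in the 7 endothelial clusters, with a point per mouse (control blue, stress red) and a line at the mean of the 6 mice. Cluster 8 has the highest mean in every panel, with a wide gap for Selp and Vcam1 and a narrow one for Hgf. Cluster 27 holds 73 cells in all, and its points scatter.

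Most single cells of cluster 8 carried Selp and Vcam1. With every cell thinned to 1000 UMIs, which left out no cluster 8 cell, Selp was detected in 79.5% of cluster 8 cells, 36.4% of cluster 2 cells and 0.519% of monocytes. Vcam1 was detected in 71.7%, 30.9% and 4.13% of the same cells. Bmp2 was detected in 71.5% of cluster 8 cells, Hgf in 50.7%, Iigp1 in 48.6% and Adamts9 in 35.4%. In cluster 2 these shares were 60.4%, 53.2%, 24.8% and 16.3%, so that Hgf was found slightly more often there. Without thinning, the shares in cluster 8 were 97.1% for Selp and 92.7% for Vcam1. The share of cluster 8 cells with at least 3 of the 6 marker transcripts lay between 78.1% and 88.4% per mouse. Selp and Vcam1 together were found in 48.0% to 65.2% of the cells per mouse, and the product of their separate shares lay between 46.6% and 65.1%, so that joint detection was close to what separate detection gives.

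Cluster 8 resembled cluster 2 most and otherwise kept a sinusoidal profile. Over 10965 genes at 10 CPM or more in any endothelial cluster, mean log2 levels correlated with Pearson's r = 0.987 with cluster 2 and 0.968 with cluster 18, and 164 and 695 genes differed by at least 2-fold. Genes are not independent replicates, and these values describe likeness only. Of the 9 sinusoidal scavenger and lectin receptor genes at 10 CPM or more, 9 were higher in cluster 8 than in the pooled other ECs in all 6 mice (background of all genes 23.5%) and 7 were lower than in cluster 2 in all 6 mice (background 28.9%). Of the 14 pan-endothelial genes, 12 were likewise higher than in the other ECs and 11 lower than in cluster 2 in all 6 mice. The pattern was thus not particular to the receptor genes. Stab2, the hyaluronan scavenger receptor, had a mean of 1420 CPM in cluster 8, 1965 CPM in cluster 2 and 677 CPM in cluster 18. Clec4g was at 1307, 1766 and 810 CPM and the inhibitory Fc receptor gene Fcgr2b at 1714, 2152 and 906 CPM in the same order. The sinusoidal transcription factor genes Gata4 (449 CPM) and Maf (2918 CPM) were also somewhat lower than in cluster 2 (593 and 3299 CPM). Of the 7 such genes listed at 10 CPM or more, 3 were lower than in cluster 2 in all 6 mice (background 28.9%). Another 1 was higher in all 6 mice (background 9.09%). The median log2 ratio of these 7 to cluster 2 was -0.18, against -0.14 over all genes. Lyve1 differed more between mice than between clusters, from 182 CPM in control mouse 2 to 1549 CPM in control mouse 1 within cluster 8.

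Genes higher in cluster 8 were counted where the mean log2 ratio was at least 1, the ratio was above 1 in all 6 mice and cluster 8 had 50 CPM or more. There were 178 against the pooled other ECs and 98 against cluster 2, of which 76 were common to both. By the same rule turned round, 295 genes were lower than in the other ECs (39.0% of all genes were lower in all 6 mice at any fold) and 0 lower than in cluster 2. With a minimum of 10 CPM in either group, 2.38% of the 9261 genes compared with the other ECs, and 1.46% of the 8693 compared with cluster 2, were at least 2-fold higher on average and higher in all 6 mice. The pool of other ECs weighs clusters by their UMIs, and cluster 16 held 47.3% doublets. Its part ran from 4426670 of 8606353 pooled UMIs in control mouse 1 to 2794018 of 11491171 in stress mouse 3. Without doublets the count of 178 was 102.

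Among leukocyte adhesion genes, 4 of 14 were at least 2-fold above cluster 2 on average and higher in all 6 mice (background of all genes 1.46%). They were Icam1, Sele, Selp and Vcam1. Another 6 of 14 were lower in all 6 mice (background 28.9%). Icam1 (chr9:21015985-21028817), the ligand of leukocyte beta2 integrins, reached 648, 774 and 693 CPM in control mice and 545, 532 and 482 CPM in stress mice, against a mean of 99.7 CPM in cluster 2. Sele (E-selectin) had between 204 and 290 CPM per mouse in cluster 8 and a mean of 53.2 CPM in cluster 2. Icam2 was at 84.9 CPM in cluster 8 and 136 CPM in cluster 2. Pecam1, at 774 and 869 CPM, and Jam2, a junctional adhesion molecule, at 768 and 892 CPM, differed less. The median log2 ratio to cluster 2 over all genes was -0.14.

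Chemokine genes included the gene with the highest ratio to the other ECs among those at 50 CPM or more. Cxcl10, which attracts CXCR3-bearing T and NK cells, had 1091, 1231 and 1584 CPM in control mice and 1556, 1145 and 1117 CPM in stress mice, against means of 105 CPM in cluster 2 and 416 CPM in monocytes, and its log2 ratio to the other ECs was 3.42 ± 0.59 (SD, n = 6). Cxcl9, another CXCR3 ligand, had a mean of 237 CPM in cluster 8 and 81.0 CPM in cluster 2, and the neutrophil attractant Cxcl1 had 74.1 and 8.70 CPM. Of 8 chemokine genes at 10 CPM or more, 5 were at least 2-fold above cluster 2 on average and higher in all 6 mice. Cxcl16 was the exception in direction, lower in cluster 8 in all 6 mice.

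NF-kB targets and interferon-stimulated genes were higher in part. Of 12 NF-kB targets, 6 were at least 2-fold above cluster 2 on average and higher in all 6 mice. They were Tnfaip3 (347 against 48.5 CPM), which encodes the A20 feedback inhibitor, Icam1, Ccl2, Nfkbiz, Nfkbia and Birc3. Of 25 interferon-stimulated genes, 6 were at least 2-fold higher on average and higher in all 6 mice, with a median log2 ratio of 0.49 over the list. These were Irf1 (686 against 155 CPM), Gbp5, Socs1, Isg15, Cd274 and Iigp1, whereas the interferon target Bst2 had a negative ratio of -0.42. The list of 11 MHC class I and peptide loading genes had a median log2 ratio of -0.22, against -0.14 over all 8693 genes, so the interferon-related genes did not all differ in 1 direction.

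The immediate-early genes, which respond within minutes to growth factors, cytokines or handling, had the highest median ratio of the 13 lists plotted. All 14 were above cluster 2 in all 6 mice (background of all genes 9.09%), 13 of them at least 2-fold on average, with a median log2 ratio of 1.83. Zfp36, which encodes an RNA-binding protein that destabilises cytokine mRNAs, had 1377 CPM in cluster 8 and 162 CPM in cluster 2. Fos had 1838 and 259 CPM, Jun 1857 and 457 CPM and Egr1 1055 and 134 CPM. Of 8 heat shock genes, 6 were higher in all 6 mice and 3 of them at least 2-fold on average, the latter being Hspa1a, Hspa1b and Hsph1. Against the pooled other ECs the list was mixed, with a median log2 ratio of 0.05, 4 genes higher and 2 lower in all 6 mice. Hspa1a and Hspa1b are near-identical copies whose counts may be split uncertainly. Both groups of genes are known to respond to tissue dissociation as well, and its part in these levels was not tested.

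**Figure D2:**
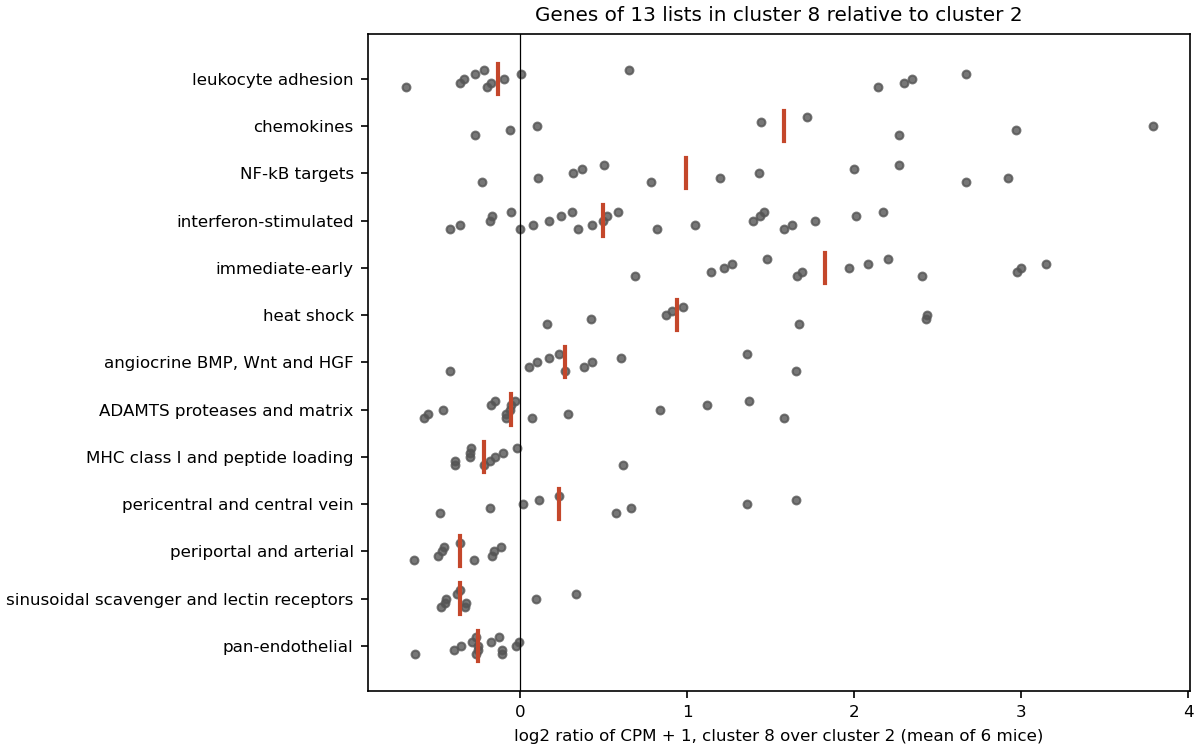
Mean log2 ratio of CPM + 1, cluster 8 over cluster 2, over 6 mice for genes at 10 CPM or more in 13 gene lists, with a dot per gene and a red line at the list median. The immediate-early, chemokine, NF-kB and heat shock medians lie right of 0, at 1.83, 1.58, 0.99 and 0.94. The receptor and pan-endothelial medians lie slightly left, at -0.36 and -0.25, and the adhesion list splits into 4 genes beyond 2 and a majority below 0.

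Across single cells of cluster 8, thinned to 1000 UMIs, summed UMIs of 7 adhesion and chemokine genes correlated with those of the immediate-early genes at Spearman's rho between 0.28 and 0.43 within each mouse. The same adhesion and chemokine sum correlated with the interferon-stimulated sum at 0.12 to 0.24. Its coefficients with the heat shock sum were higher in every stress mouse than in every control mouse. Control mice 1, 2 and 3 gave 0.0081, -0.032 and -0.20, whereas stress mice 1, 2 and 3 gave 0.30, 0.29 and 0.077. The immediate-early and heat shock sums separated likewise, with control mice at -0.079 to 0.11 and stress mice at 0.25 to 0.51. So did the interferon-stimulated and heat shock sums, at -0.26 to -0.093 and 0.042 to 0.12. The coefficients of the heat shock sum with the sinusoidal receptor sum overlapped. In control mice 1 and 3 the median heat shock sum was 2 UMIs, with 0 in 21.7% and 12.5% of cells. In the other mice the median lay between 6 and 9 UMIs. None of these separations was tested. The cells of a mouse share a library and a fixed total, and these coefficients are given as a description.

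Of 11 angiocrine genes, 6 were higher than in cluster 2 in all 6 mice (background of all genes 9.09%). Of these, 2 (Wnt9b and Rspo3) were at least 2-fold higher on average (background 1.46%). Only 1 was lower in all 6 mice (background 28.9%), and the median log2 ratio of the list was 0.27. Of 16 genes of the protease and matrix list, 3 were at least 2-fold above cluster 2 on average and higher in all 6 mice (background 1.46%). All 3 encode ADAMTS proteases, namely Adamts9, Adamts4 (249 against 92.6 CPM) and Adamts1 (739 against 343 CPM). Another 3 of the 16 genes, Timp1, Mmp14 and Hspg2, were lower in all 6 mice, as were 28.9% of all genes. Timp3, a tissue inhibitor of such proteases, was also higher in all 6 mice (774 against 435 CPM). The basement membrane genes Col4a1, Col4a2 and Nid1 had log2 ratios between -0.03 and -0.08. Rspo3, a Wnt amplifier of the central vein, had 474 CPM in cluster 8, between cluster 2 (153 CPM) and cluster 18 (2668 CPM), and Wnt9b followed the same order at 20.1, 8.72 and 116 CPM. Kit, another central marker, did not, at 437, 501 and 647 CPM. Thus cluster 18, not cluster 8, held the highest level of these pericentral genes.

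By the rule for the largest ratios to the other ECs, the 15 genes named were Cxcl10, Zfp36, Icam1, Fgf23, Olr1, Tnfaip3, Selp, Sele, Vcam1, F5, Irf1, Hspa1b, Hspa1a, Gbp5 and Cxcl9, with log2 ratios between 3.42 and 2.21. Fgf23, a phosphate-regulating hormone gene, was uneven, with 91.6, 272 and 182 CPM in control mice and 21.2, 58.8 and 69.1 CPM in stress mice. Olr1, the receptor of oxidised low-density lipoprotein, had between 215 and 416 CPM per mouse, and F5 (coagulation factor V) between 56.2 and 175 CPM. At the other end, the 10 genes lowest relative to the other ECs, led by Gm49980, Chchd10 and Cox7b2, were abundant in tumor cells. Gm49980 had 95.1 CPM in cluster 8, 91.9 CPM in cluster 2 and 2428 CPM in tumor cells, and S100a6 had 306, 338 and 6236 CPM. The levels in clusters 8 and 2 were thus close, and tumor cells were far above both. The genes lowest relative to cluster 2 were led by Gpihbp1, the lipoprotein lipase carrier of capillaries (606 against 1003 CPM, log2 ratio -0.77 ± 0.15, SD, n = 6).

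Promoter sequence is shown for 3 of these genes, a chemokine gene, an NF-kB feedback inhibitor and a marker of the cluster, because their windows hold different matches. RefSeq promoter windows (GRCm38.p6) were found for 16 of the 19 genes formed by the 15 above and the 6 markers, and the 250 bases before the start were searched on both strands for the NF-kB consensus, the interferon-stimulated response element GAAANNGAAA, the AP-1 site TGANTCA and the heat shock element GAANNTTCNNGAA. The NF-kB consensus was in 7 of 16 windows (8.23% of all 27025 genes), AP-1 in 5 (7.82%), the interferon element in 2 (3.46%) and the heat shock element in 0 (0.514%). The 7 were Cxcl10, Tnfaip3, Irf1, Hspa1b, Hspa1a, Gbp5 and Adamts9, and Selp and Sele were not among them. Hspa1a and Hspa1b are near-identical copies and both are counted. The AP-1 site was in Cxcl10, Olr1, Tnfaip3, Selp and Sele, and the interferon element in Cxcl10 and Gbp5. The genes were chosen for their levels, and a match describes letters only. In the sequences below, written 5′ to 3′ on the strand of the gene, capitals mark any of these matches. The Cxcl10 window is chr5:92348890-92349139 on the minus strand, that of Tnfaip3 is chr10:19015411-19015660 on the minus strand and that of Selp is chr1:164115014-164115263 on the plus strand. The Tnfaip3 window precedes a RefSeq start and lies almost wholly within the GENCODE gene (chr10:19000910-19015657).
Cxcl10: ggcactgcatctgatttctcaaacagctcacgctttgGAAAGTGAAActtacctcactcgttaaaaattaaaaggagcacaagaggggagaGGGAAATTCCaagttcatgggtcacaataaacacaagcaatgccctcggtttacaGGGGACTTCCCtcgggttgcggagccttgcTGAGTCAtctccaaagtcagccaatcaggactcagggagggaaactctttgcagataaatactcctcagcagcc
Tnfaip3: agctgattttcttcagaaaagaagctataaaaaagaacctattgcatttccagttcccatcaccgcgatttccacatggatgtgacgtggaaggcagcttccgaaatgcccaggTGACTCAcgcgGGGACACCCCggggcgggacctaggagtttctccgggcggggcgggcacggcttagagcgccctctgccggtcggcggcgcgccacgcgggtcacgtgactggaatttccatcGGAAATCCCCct
Selp: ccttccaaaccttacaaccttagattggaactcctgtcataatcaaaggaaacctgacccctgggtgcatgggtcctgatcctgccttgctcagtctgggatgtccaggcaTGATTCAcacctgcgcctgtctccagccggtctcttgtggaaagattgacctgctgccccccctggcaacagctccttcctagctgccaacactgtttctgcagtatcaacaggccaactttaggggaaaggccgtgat
The Cxcl10 window held 3 NF-kB matches, of which 2 overlap, 1 interferon element and 1 AP-1 site, that of Tnfaip3 2 NF-kB matches and 1 AP-1 site, and that of Selp 1 AP-1 site.

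Cluster 8 formed a smaller share of the ECs in stress mice. It held 28.7%, 28.4% and 30.2% of the ECs of control mice 1, 2 and 3 and 18.3%, 18.04% and 25.3% of those of stress mice 1, 2 and 3, that is 29.1% ± 0.954 and 20.5% ± 4.13 (SD, n = 3 each). The groups did not overlap, and the two-sided exact permutation test gave p = 0.10, adjusted over 5 measures 0.167. Exact 95% binomial intervals, which cover counting error only, ran from 26.5% to 32.6% over the control mice and from 16.4% to 27.1% over the stress mice. Cluster 15, a shallow cluster with a median of 1212 UMIs per cell, held 4.01% of the ECs in control and 17.3% in stress mice. With cluster 15 left out of the denominator the shares of cluster 8 were 29.2%, 29.9% and 31.9% against 20.6%, 23.5% and 30.7%, and stress mouse 3 lay within the control range (exact permutation test, p = 0.30). Among the ECs of clusters 2 and 8 alone, an alternative chosen after seeing the data, the shares were 40.5% ± 2.65 and 33.4% ± 4.37 (SD, n = 3, exact permutation test, p = 0.20). Of all cells, cluster 8 made up 5.12% ± 0.202 and 4.42% ± 1.02 (SD, n = 3, exact permutation test, p = 0.40, adjusted 0.40). With single cells, fewer cells captured and fewer cells in the tissue cannot be told apart.

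**Figure D3:**
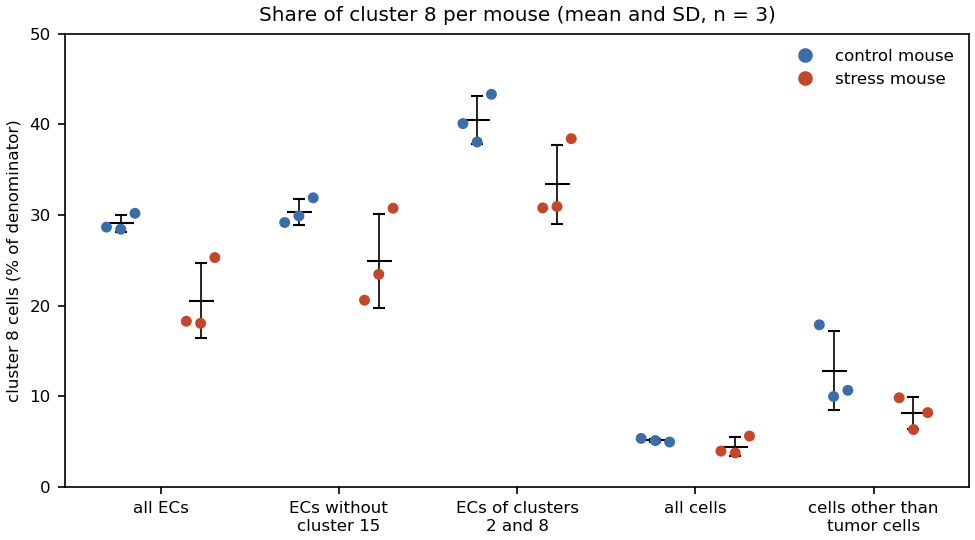
Share of cluster 8 per mouse, in percent, of all ECs, ECs without cluster 15, ECs of clusters 2 and 8, all cells and cells other than tumor cells, with points for mice (control blue, stress red) and bars for mean ± SD of 3 mice. The groups separate for all ECs and for cells other than tumor cells, and overlap in the other denominators.

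To ask which transcripts differed with stress inside cluster 8, the UMIs of its cells were added up for each mouse, and edgeR's quasi-likelihood test was run over 10415 genes. It called 29 genes (0.278% of those tested) at a Benjamini-Hochberg adjusted p under 0.05, 12 higher (0.115%) and 17 lower (0.163%) in stress mice, and 1125 genes had an unadjusted p under 0.05. The number called was 12, 137 and 18 without control mouse 1, 2 or 3 and 13, 9 and 12 without stress mouse 1, 2 or 3. Of the 29 genes, 18 were also called when the other ECs were tested alone (0.292% of 13707 genes were called there), and those 2 tests share the mice. In 5 other cell types of the same libraries (tumor cells, monocytes, NK/T cells, inflammatory myeloid cells and dendritic cells), the groups separated in the same direction in all 5 types for 15 of the 29 genes and in 4 types for 7 more. Of all 10415 genes, 0.653% separated in 1 direction in all 5 types and 2.63% in 4. Whether Cell Ranger version or stress set these changes cannot be told apart.

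None of the 6 marker genes was called, at edgeR adjusted p between 0.253 for Hgf and 0.985 for Iigp1. Hgf had 1259, 1007 and 839 CPM in control mice and 1799, 1944 and 1506 CPM in stress mice, which did not overlap (log2 fold change 0.77 ± 0.19, SE, edgeR adjusted p = 0.253). Bmp2 likewise did not overlap, with a log2 fold change of 0.54 ± 0.20 (SE, edgeR adjusted p = 0.376), whereas all groups overlapped for Selp (-0.43 ± 0.25), Adamts9 (-0.29 ± 0.34), Vcam1 (-0.10 ± 0.20) and Iigp1 (0.04 ± 0.41). Groups that did not overlap were found for 16.2% of all genes tested.

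A group of called genes rose across cell types. Cmss1, which encodes a small ribosomal subunit processing factor, had 330, 337 and 315 CPM in control mice and 2378, 2881 and 2077 CPM in stressed mice (log2 fold change 2.91 ± 0.18, SE, edgeR adjusted p = 0.000675). Cdk8, Lars2, Camk1d, Gphn and Gm19951 rose by 2.50 to 3.01 on the log2 scale, and all 6 of these genes, listed because earlier results of these data had shown them raised in several cell types, were called. The mitochondrial genes mt-Atp8 (log2 fold change 1.79) and mt-Nd4l (1.31), which overlap their neighbours on the transcript, also rose. Among the genes that fell, Rps27rt, Rpl37rt, Uba52rt, Rpl9-ps6, Gm2000 and Gm14164 are near-identical copies or gene models whose reads can be shared with other genes, and they are uncertain. Camk2b, a calcium/calmodulin kinase subunit, had 87.0, 75.6 and 61.2 CPM in control mice and 21.7, 22.7 and 21.1 CPM in stressed mice (log2 fold change -1.77 ± 0.17, SE, edgeR adjusted p = 0.00349).

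A smaller set of 6 called genes separated in the same direction in at most 2 of the 5 other cell types, although the difference between cell types was not tested. The ECs of cluster 2 were closer, and there Bmal1, Nr1d1, Gm57466 and Pawr also separated in the same direction, with log2 ratios of stress to control of -1.68, 1.65, 1.27 and -0.47. Pawr, a proapoptotic regulator, fell by 0.83 on the log2 scale and Swt1 rose by 0.96. The poorly annotated Gm57466 had the highest fitted log2 fold change of the called genes, 4.14 ± 0.63 (SE, edgeR adjusted p = 0.0459), at very low levels. The call was lost in 5 of the 6 fits with 1 mouse left out, at edgeR adjusted p up to 0.164. Over the 6 fits its log2 fold change lay between 3.46 and 4.43. The gene lay between 0.418 and 1.13 CPM in control mice and between 9.68 and 28.7 CPM in stress mice.

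A further 2 genes of that set belong to the circadian clock, whose activator Bmal1 is repressed by Nr1d1 (REV-ERB alpha). Bmal1 had 23.4, 28.4 and 41.3 CPM in control mice and 10.3, 6.95 and 6.38 CPM in stressed mice (log2 fold change -2.02 ± 0.30, SE, edgeR adjusted p = 0.0453). Nr1d1 had 17.2, 8.72 and 9.01 CPM in control mice and 33.6, 46.3 and 53.9 CPM in stressed mice (log2 fold change 1.97 ± 0.29, SE, edgeR adjusted p = 0.0409). For both genes the groups were fully apart. With 1 mouse left out, edgeR adjusted p reached 0.265 for Bmal1 and 0.195 for Nr1d1. The log2 fold changes then lay between -2.26 and -1.74 for Bmal1 and between 1.78 and 2.34 for Nr1d1. The Bmal1 call was also lost without doublets (log2 fold change -2.17, edgeR adjusted p = 0.0728) and with equal cells per mouse (-2.01, 0.05002). Of 24 called genes rechecked, 8 passed in all 13 alternatives. The clock output gene Dbp, at 43.5, 43.9 and 22.5 CPM against 70.0, 121 and 145 CPM, and Nr1d2 did not pass (edgeR adjusted p = 0.0882 and 0.0890). Of 14 clock genes tested, a list drawn up after these values were seen, 1 was called higher and 1 lower (0.115% and 0.163% of all genes), and the groups did not overlap for 3 in the higher and 4 in the lower direction (8.18% and 7.99% of all genes), the latter being Bmal1, Clock, Nfil3 and Bhlhe40. The time of day at which each tumor was collected is not given in the sources used here, and its part was not tested.

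**Figure D4:**
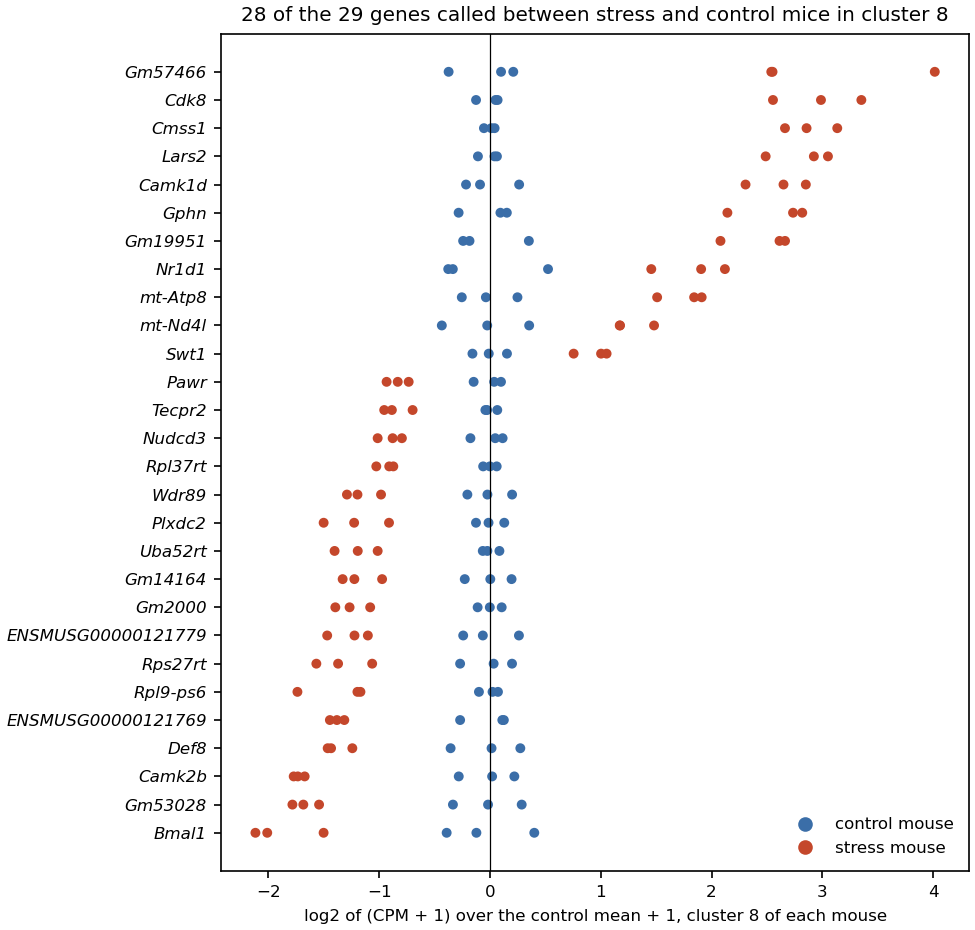
28 of the 29 genes called between stress and control mice in cluster 8, each as log2 of CPM + 1 over the control mean + 1, with a point per mouse (control blue, stress red). The control points lie around 0, the 11 higher genes shown have all stress points to the right and the 17 lower genes have all stress points to the left.

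In the gene groups that describe cluster 8, none of the NF-kB targets, chemokines, leukocyte adhesion, interferon-stimulated, immediate-early or heat shock genes was called between stress and control mice. The heat shock genes shared a direction without a call. All 8 had positive log2 fold changes with a median of 1.07, against -0.000356 over all genes, and in 6 the groups did not overlap (8.18% of all genes did so in this direction). Hspa1b had 574, 2065 and 1019 CPM in control mice and 3145, 2725 and 2426 CPM in stressed mice (log2 fold change 1.20 ± 0.39, SE, edgeR adjusted p = 0.318), so the spread between control mice was wide. With 1 mouse left out its log2 fold change lay between 0.87 and 1.78, and edgeR adjusted p was 0.0256 without control mouse 2 and between 0.424 and 0.657 without any other mouse. Higher levels were also found outside the ECs, with Hspa1a at a log2 ratio of stress to control of 1.06 in tumor cells and 1.64 in NK/T cells. The groups separated for Hsp90aa1 in all 5 other cell types (0.653% of all genes separated in 1 direction in all 5). They separated for Hspa8 in 4 (2.63% of all genes), for Hspa1a and Hspa1b in 3 each, for Hsph1 in 2 and for Dnajb1 in 1. In cluster 2 the groups overlapped for Hspa1a, Hspa1b, Hsph1, Hsp90aa1, Dnajb1 and Hspa8, with log2 ratios between -0.16 and 0.21.

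Of the 26 interferon-stimulated genes tested, 18 had positive log2 fold changes, with a median of 0.49, and 7 did not overlap in that direction (8.18% of all genes did so). The summed level of the list overlapped, with 2513, 2518 and 4769 CPM in control mice and 4627, 3593 and 3251 CPM in stress mice, and control mouse 3 was above every stress mouse. Isg15, a ubiquitin-like modifier, had 31.8, 41.7 and 66.4 CPM in control mice, against 261, 153 and 134 CPM under stress (log2 fold change 1.97 ± 0.34, SE, edgeR adjusted p = 0.0750). Ifit1, which binds foreign RNA caps, had a log2 fold change of 2.70 ± 0.53 (SE, edgeR adjusted p = 0.113), whereas Irf1 and Cd274 had negative values. Isg15 also separated higher in tumor, NK/T and dendritic cells, Ifit1 in NK/T cells only and Stat2 in no cell type outside the ECs. In the pooled other ECs all 3 separated higher, at log2 ratios of 1.02, 1.53 and 0.64. In cluster 2, Ifit1 (0.87) and Stat2 (0.40) separated higher and Isg15 overlapped. Among NF-kB targets, Nfkbia, Icam1, Relb and Bcl3 were lower in every stress mouse than in every control mouse (4 of 13, against 7.99% of all genes). Ccl2 separated in the other direction (37.0 ± 7.76 against 69.0 ± 16.9 CPM, SD, n = 3), and 6 of the 13 had positive values. Nfkbia had 1277, 1108 and 1105 CPM in control mice and 716, 565 and 514 CPM in stressed mice (log2 fold change -0.95 ± 0.18, SE, edgeR adjusted p = 0.102). Cxcl10, Sele and Tnfaip3 overlapped. In cluster 2, Nfkbia, Icam1 and Relb also separated lower, with log2 ratios of stress to control of -0.84, -0.72 and -0.51. Bcl3 and Ccl2 overlapped there.

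The stress effect in cluster 8 was then set against that in the other ECs of the same mice with an interaction term in edgeR. Over 13498 genes, 18 (0.133%) were called, 17 (0.126%) with a higher stress-to-control ratio in cluster 8 and 1 (0.00741%), Kazn, with a lower one, and 1106 had an unadjusted p under 0.05. The per-mouse ratio of cluster 8 to the other ECs did not overlap between the groups for 5.58% of genes in the higher and 9.58% in the lower direction. Because all other ECs include clusters whose shares shifted, cluster 2 alone was also used, which gave 52 calls (0.454% of 11459), 42 higher (0.367%) and 10 lower (0.0873%), with 13 of the 18 among them. Without cluster 15, 11 were called, 10 of them the same. Without doublets 46 were called, and with 1 mouse left out between 6 and 66. The cells were assigned to clusters 8 and 2 by expression that includes these genes, and how far the border between the clusters differed between the groups was not tested.

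Immediate-early genes gave 4 of the 18 calls (Fos, Fosb, Ier2 and Egr1, of 14 tested) and, against cluster 2, 9 of 14, where 0.126% and 0.367% of all genes were called higher. Fosb was not among the latter, with a log2 interaction of 0.82 against cluster 2 (edgeR adjusted p = 0.0510) and 1.39 against all other ECs. Fos had 1974, 1593 and 1923 CPM in cluster 8 of control mice and 2268, 1417 and 1851 CPM in stress mice. In cluster 2 it had 456, 290 and 361 CPM in control and 136, 118 and 195 CPM in stress mice. The log2 interaction was 1.17 ± 0.13 (SE, edgeR adjusted p = 0.00220) against all other ECs and 1.31 (edgeR adjusted p = 0.00160) against cluster 2. In cluster 8 the Fos groups overlapped, and in cluster 2 every stress mouse was below every control mouse. Egr1 had a log2 interaction of 1.76 ± 0.20 (SE, edgeR adjusted p = 0.00220), and against cluster 2 it was 1.52.

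The heat shock genes Hsph1 and Hsp90aa1 and the cochaperone gene Bag3 were called as well. Hsp90aa1, with a log2 interaction of 0.92, was at 0.88 against cluster 2 and was not called there (edgeR adjusted p = 0.0671). Without cluster 15 neither Hsp90aa1 (0.91) nor Bag3 (1.06, against 1.07 with it) was called (edgeR adjusted p = 0.0543 for both). Hsph1 had 152, 484 and 150 CPM in cluster 8 of control mice and 796, 935 and 685 CPM in stress mice, and 52.3, 294 and 85.7 CPM against 102, 182 and 217 CPM in cluster 2 (log2 interaction 1.31 ± 0.17, SE, edgeR adjusted p = 0.00689). Here the stress mice were separate in cluster 8 and overlapped the control mice in cluster 2. The interferon targets Rsad2, an antiviral radical enzyme, and Ifih1, the double-stranded RNA sensor MDA5, followed the same pattern. Rsad2 had 20.9, 42.6 and 120 CPM in cluster 8 of control mice and 227, 244 and 244 CPM in stress mice, against 29.6, 25.5 and 84.7 CPM and 30.6, 40.6 and 52.1 CPM in cluster 2 (log2 interaction 1.67 ± 0.18, SE, edgeR adjusted p = 0.00220). Ifih1 had 52.7, 96.6 and 136 CPM and 485, 401 and 303 CPM in cluster 8 and between 62.1 and 91.2 CPM in all 6 mice in cluster 2. In the pooled other ECs, Ifih1 separated higher at a log2 ratio of stress to control of 0.66, and Rsad2 overlapped. In dendritic cells both genes separated higher, at 2.68 for Rsad2 and 1.66 for Ifih1. In tumor cells, monocytes, NK/T cells and inflammatory myeloid cells both overlapped. The Ifih1 call (log2 interaction 1.45, edgeR adjusted p = 0.0459) was lost without cluster 15, where the value was 1.43 (edgeR adjusted p = 0.0543). Of the 26 genes of the interferon-stimulated list that were tested, which does not hold Ifih1, Rsad2 was the 1 called.

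Among adhesion genes none was called against all other ECs, and Sele alone was called against cluster 2. Sele in cluster 8 had 290, 262 and 221 CPM in control mice and 212, 276 and 204 CPM in stress mice, and in cluster 2 it had 99.1, 59.0 and 70.8 CPM against 20.9, 34.5 and 34.7 CPM (log2 interaction 1.14 ± 0.18, SE, edgeR adjusted p = 0.0164). The hemoglobin genes Hbb-bs, Hba-a1 and Hba-a2 were called with the largest values, 3.02, 2.60 and 2.50, but Hbb-bs ranged from 0.646 to 250 CPM among mice in cluster 8 and from 1.70 to 686 CPM in cluster 2, and without Scrublet doublets the values of Hba-a1 and Hba-a2 turned negative.

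**Figure D5:**
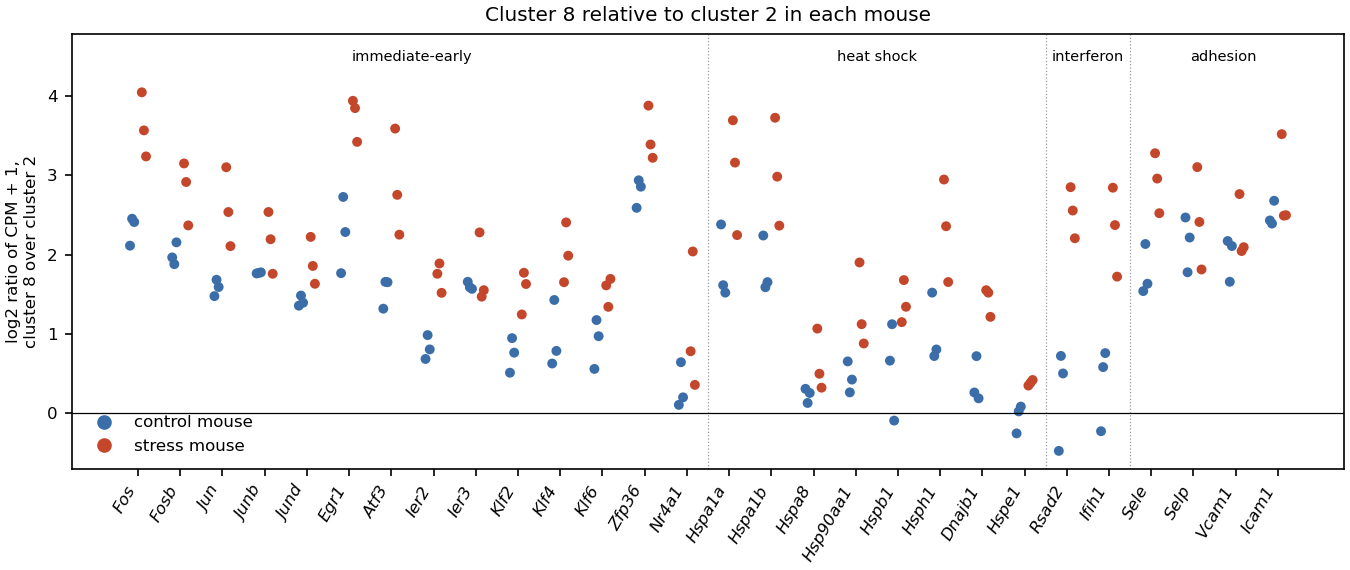
Log2 ratio of CPM + 1, cluster 8 over cluster 2, in each mouse (control blue, stress red) for the immediate-early, heat shock, 2 interferon and 4 adhesion genes. For Fos, Ier2, Rsad2, Ifih1 and Sele all stress points lie above all control points, whereas for Selp, Vcam1 and Icam1 the groups overlap.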

How the data were processed

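Single-cell RNA of 6 tumors was sequenced on the 10x Genomics platform, and per the labels reads were aligned to mm10 with Cell Ranger. By the study's methods, doublets and cells with few genes or much mitochondrial RNA were removed and cells were clustered in Seurat after Harmony integration. The deposited matrices hold raw UMI counts per gene and cell, and the deposited annotation gives each kept cell's library, UMI count, cluster and cell type. Scrublet calls (scanpy 1.11.5) and mitochondrial percents were computed here from the matrices, and cells called doublets were kept except in an alternative. Counts were summed per mouse over the cells of cluster 8 and, for the interaction, over the other ECs. Stress was tested with edgeR 4.0.16 (R 4.3.3, filterByExpr, TMM, quasi-likelihood, Benjamini-Hochberg adjusted p under 0.05), and shares and depth with two-sided exact permutation tests. Levels are CPM, the UMIs of a gene scaled by the total UMIs of the summed cells, and ratios are log2 of CPM + 1. A fold on this scale understates low genes. Scripts were tested on simulated data. At a log2 fold of 1, 44 of 86 changed genes were recovered in the stress test of cluster 8, and 16 of 98 in the interaction. Alternatives were DESeq2 1.42.0, other scaling and filters, no doublets, equal cells per mouse and leaving out each mouse. Depth per cell is given above, and UMI intervals cover counting error only. Named genes were those of the gene lists, the 10 largest called rises and falls with separate groups, up to 5 interactions in each direction, and the 15 highest and 10 lowest ratios to other ECs at 50 CPM or more. The cluster, the gene lists and these rules were chosen with earlier results of these data known, and other genes named were chosen after their values were seen. The labels do not say that mice sharing a replicate number were paired, or that mice came from separate cohorts. The values of some genes are not reported here. Gene positions are from GENCODE M21 (GRCm38).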

Additional observations from a re-analysis of the deposited data

Results flagged for a closer look

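The stress effect differed between cluster 8 and the other ECs, by edgeR's interaction term, for 18 genes, of which 17 are given. The differences in log2 fold change were 1.76 for Egr1, 1.39 for Fosb, 1.24 for Ier2 and 1.17 for Fos among the immediate-early genes, and 1.31 for Hsph1, 1.07 for Bag3 and 0.92 for Hsp90aa1 among heat shock genes and cochaperones. They were 1.67 for Rsad2 and 1.45 for Ifih1, both interferon targets. For hemoglobin genes they were 3.02 for Hbb-bs, 2.60 for Hba-a1 and 2.50 for Hba-a2. Further values were 2.05 for Elmod3, 1.43 for Cenpa, 0.91 for Arl4d, 0.82 for Swt1 and -0.91 for Kazn. Against cluster 2 alone, Cenpa was at 0.57 and was not called (edgeR adjusted p = 0.522). Without cluster 15, Elmod3, Arl4d, Hbb-bs, Hba-a1 and Hba-a2 were not called (edgeR adjusted p from 0.0543 to 0.143). Their values there were 2.02, 0.92, 4.74, 4.14 and 3.98 in the same order. Hba-a2 was not called against cluster 2 alone either, at 3.70 (edgeR adjusted p = 0.0530). For Fos and Arl4d the fitted stress effect was near 0 in cluster 8 (0.02 and -0.06) and negative in the other ECs (-1.15 and -0.98). For Ier2 and Cenpa it was 0.18 and 0.27 in cluster 8 and -1.05 for both in the other ECs. For Egr1 it was 0.65 and -1.17 in the same order. For Kazn it was -0.13 in cluster 8 and 0.81 in the other ECs, so its lower ratio came mainly with a rise in the other ECs.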

How the results depend on the processing

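The number of genes called between stress and control mice in cluster 8, 29, was 116 with DESeq2, 424 with no filter on low counts and 51 under a replicate block, and 9 to 137 with 1 mouse left out. Mice with the same number deviated together for numbers 1 and 2 (r = 0.40 and 0.33) but not for number 3 (r = -0.20). The labels do not say that these mice were paired, and with 3 mice against 3 these values cannot settle it. The interaction count, 18, was 52 against cluster 2 only, 11 without cluster 15, 34 with DESeq2, 176 with no filter and 46 without doublets, and 6 to 66 with 1 mouse left out. The 178 genes higher than in other ECs were 98 against cluster 2 only, 102 without doublets and 98 with cells thinned to 1000 UMIs. Directions turned for Iigp1 under stress (-0.011 with equal cells per mouse, -0.27 to 0.71 with 1 mouse left out), Vcam1 (-0.28 to 0.038) and Adamts9 (-0.55 to 0.029), none of them called. They also turned in the interaction for Hba-a1 (-0.64) and Hba-a2 (-0.20) without doublets. The cause was not tested. The depth of cluster 8 differed between the groups, and 3 mice against 3 cannot give an exact p below 0.10.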
